A study of Mus musculus with 9 samples.

Results

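Nfkbia, Icam1 and Cd44 encode an inhibitor of the transcription factor NF-kB and a pair of surface molecules through which leukocytes attach to vessels and tissue. They were taken by gene symbol from the tables deposited for an RNA-Seq study of postoperative ileus, in which the bowel stops moving for a time after abdominal operations. These 3 genes of 531 were listed with 5 transcripts of 634, namely 1 of Nfkbia, 1 of Icam1 and 3 of Cd44. Libraries were made from the muscularis externa (ME), the muscle coat of the small intestine with the enteric nerve cells and glia inside it, of BL6 mice aged 8 to 12 weeks. There were 3 libraries each from controls (Control), from mice 3 h after intestinal manipulation (IM3h), a standardized handling of the bowel at surgery, and from mice 24 h after it (IM24h). No transgene, deletion or drug was named for these groups. The labels call the controls sham operated, whereas the table headers and the text of the study call them naive, which was not resolved here. Sham mice would share the laparotomy with the manipulated mice, and naive mice would not.

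Every level below is the authors' mean of normalized counts over the 3 libraries of a group. Values of single libraries were not analysed here, so no level has an error, no overlap between groups can be judged, and no difference was tested. A fold is the ratio of 2 such means and describes these group means alone. The library kit makes 1 fragment per transcript, so raw counts should not scale with transcript length. Because the normalization is not given, levels of different genes are set side by side on the assumption that it did not scale by length. No label ties a library to a mouse of its own. All IM3h libraries carry numbers of a different series from those of the other libraries, so the number series and the 3 h time point cannot be told apart. The gliosis table, a list assembled by the study that includes genes of reactive astrocytes, held 155 transcripts. The table of changed genes held 502 transcripts, and each of its transcripts differed at least 2-fold in all 3 comparisons. Nfkbia stood only in the latter, Cd44 only in the former and Icam1 in both. Totals over all libraries ran from 12.1 to 17004 normalized counts per transcript (median 53.8), which puts Nfkbia (4429) and Cd44 (1364 for its main transcript) among the deeply counted transcripts and Icam1 (189) above the median.

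In resting cells NF-kB dimers are held in the cytoplasm by inhibitor proteins, of which IkBa, the product of Nfkbia, is the best known. Signals from Toll-like, TNF and IL-1 receptors activate a kinase complex that marks IkBa for degradation, and the freed dimers enter the nucleus. Nfkbia is itself a target of NF-kB, so newly made IkBa takes the dimers back out of the nucleus and forms a negative feedback loop. Icam1, another NF-kB target, encodes an adhesion molecule of the immunoglobulin family on endothelium and many other cells, to which the beta2 integrins of leukocytes bind when they leave the blood. Cd44 encodes the main surface receptor for hyaluronan, is carried by most leukocytes as well as by stromal and glial cells, and takes part in rolling, migration and matrix binding.

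The 250 bases upstream of each annotated start are shown because they set the 3 genes side by side at the level of sequence. They were read from RefSeq, build GRCm38.p6, and all 3 genes matched by symbol. The windows are chr12:55492648-55492897 on the minus strand for Nfkbia, chr9:21015690-21015939 on the plus strand for Icam1 and chr2:102901666-102901915 on the minus strand for Cd44. Each is written 5′ to 3′ on the strand of its gene, with the base next to the start last, and capitals mark the bases that match an NF-kB motif on the opposite strand.
Nfkbia: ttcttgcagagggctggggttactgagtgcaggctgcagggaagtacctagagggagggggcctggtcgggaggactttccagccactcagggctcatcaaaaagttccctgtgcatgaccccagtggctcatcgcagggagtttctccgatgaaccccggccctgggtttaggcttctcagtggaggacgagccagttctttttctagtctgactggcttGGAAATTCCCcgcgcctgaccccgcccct
Icam1: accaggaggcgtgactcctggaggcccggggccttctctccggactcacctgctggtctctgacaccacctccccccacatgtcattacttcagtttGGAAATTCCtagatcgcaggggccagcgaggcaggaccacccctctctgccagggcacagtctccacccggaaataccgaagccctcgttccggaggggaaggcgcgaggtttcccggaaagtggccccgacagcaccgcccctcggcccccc
Cd44: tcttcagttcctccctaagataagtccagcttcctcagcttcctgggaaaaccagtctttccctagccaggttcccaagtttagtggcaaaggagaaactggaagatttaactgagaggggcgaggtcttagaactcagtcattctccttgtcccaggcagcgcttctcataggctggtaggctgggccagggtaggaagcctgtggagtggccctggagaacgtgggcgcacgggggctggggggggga

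Both strands were searched for the general NF-kB consensus, for the shorter letters GGAATTTCC and for TATAA. The Nfkbia window held 1 match to the consensus, from 29 to 20 bases before the start, which reads GGGAATTTCC on the opposite strand and overlaps its match to GGAATTTCC. In the Icam1 window GGAATTTCC was found from 153 to 145 bases before the start, also on the opposite strand, and the consensus was not found. The Cd44 window matched none of these letters, and TATAA was in none of the 3 windows. Of 32851 promoter windows of the same length in the RefSeq table, 7.25% held the consensus, 0.286% held GGAATTTCC and 22.8% held TATAA. The motifs were chosen with these genes in mind, and a match describes letters in a window rather than a bound site. A window without a match does not show that a gene is no target of NF-kB. The GC content was 59.2% for Nfkbia, 65.2% for Icam1 and 56.4% for Cd44.

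Nfkbia was the most strongly expressed of the 3 genes in every group. Its transcript NM_010907 had a level of 126 in Control, 1065 in IM3h and 286 in IM24h. The IM3h mean was therefore 8.45-fold above Control (log2 3.08), and the IM24h mean was 2.27-fold above Control (log2 1.18) and 3.73-fold below IM3h. Among all 634 listed transcripts Nfkbia ranked 12 by level in Control, 2 in IM3h and again 12 in IM24h. In normalized counts it gained 939 between Control and IM3h, which was the largest such difference of all 634 transcripts. By fold it stood further back, at rank 73 of 634.

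Icam1 was the scarcest of the 3 genes and had the highest fold at 3 h, though at 24 h the fold of Cd44 was higher. Its transcript NM_010493 had a level of 2.58 in Control, 50.2 in IM3h and 10.2 in IM24h. The IM3h mean was 19.4-fold above Control (log2 4.28), whereas the IM24h mean was 3.94-fold above Control (log2 1.98) and 4.94-fold below IM3h. By level Icam1 moved from rank 354 of 634 transcripts in Control to rank 69 in IM3h and to rank 281 in IM24h. Its fold at 3 h ranked 34 of 634. In the gliosis table, where it ranked 11 of 155 by fold at 3 h, only 5 transcripts had a lower IM24h level relative to IM3h.

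Cd44 was raised to a similar degree at both times. Its main transcript NM_001039151 had a level of 38.3 in Control, 221 in IM3h and 195 in IM24h. Relative to Control this was 5.78-fold higher at 3 h (log2 2.53) and 5.11-fold higher at 24 h (log2 2.35), and the IM24h mean was 1.13-fold below IM3h. By level Cd44 ranked 45 of 634 transcripts in Control, 14 in IM3h and 16 in IM24h. In the gliosis table it ranked 27 of 155 by fold at 3 h, with its other listed transcripts just ahead of it, and 28 by fold at 24 h.

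**Figure D1:**
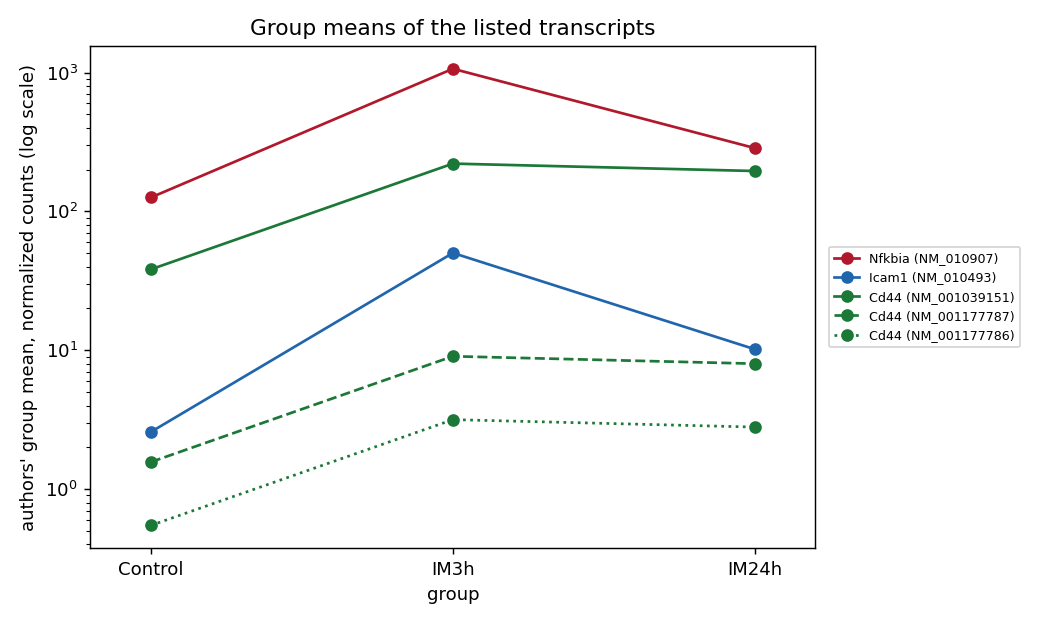
Authors' group mean of normalized counts (log axis) for the 5 listed transcripts of Nfkbia, Icam1 and Cd44 in Control, IM3h and IM24h; each point is 1 mean and has no error bar because values of single libraries were not analysed. Nfkbia and Icam1 are highest in IM3h, at 1065 and 50.2, and lower in IM24h, whereas the 3 Cd44 lines run in parallel and stay near their IM3h level.

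The remaining Cd44 transcripts were minor and added no separate information. NM_001177787 had levels of 1.57, 9.05 and 8.00 in Control, IM3h and IM24h, and NM_001177786 had levels of 0.548, 3.17 and 2.80. The main transcript made up 94.8% of the Cd44 sum in every group, with 3.88% and 1.36% for the others, and all 3 had the same folds of 5.78 and 5.11. Of 81 genes with more than 1 listed transcript, 47 likewise had folds equal within 0.01 on the log2 scale. In the annotation the 3 Cd44 transcripts have 9, 11 and 12 exons, and their last exons begin at the same base and span 1791, 218 and 218 bases. Since the kit reads the 3′ end, levels of single Cd44 isoforms are uncertain, and the sum over them (40.4, 233 and 206) gave the same folds.

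All 3 genes were more than 1.5-fold above Control at 3 h, the fold the study used as its minimum, in tables where 51.0% of the 531 genes were that much higher and 41.8% that much lower. They were likewise all above that fold at 24 h, where 76.3% of genes were higher and 19.0% lower. Between IM3h and IM24h, Nfkbia and Icam1 were more than 1.5-fold lower at 24 h and Cd44 was not, against 28.8% of genes lower and 63.7% higher. The shares depended on the table. In the table of changed genes, 55.4% of transcripts were higher than Control at 3 h, 80.7% were higher at 24 h and 33.3% were lower at 24 h than at 3 h. In the gliosis table the corresponding shares were 44.5%, 62.6% and 20.6%. Being above Control was therefore common among listed genes, and the tables held only genes chosen by the authors.

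The combination of the 3 comparisons differed between Cd44 and the others. Nfkbia and Icam1 shared the pattern of 79 genes (14.9% of 531), which were higher than Control at both times and lower at 24 h than at 3 h. Cd44 belonged to 17 genes (3.20%) that were higher at both times and differed by less than 1.5-fold between them. Such a flat course could not enter the table of changed genes, which required a 2-fold difference between 3 h and 24 h, and so the 17 understate how common it was. Nfkbia was listed in that table alone and Cd44 only outside it, so the contrast between them follows in part from the selection. Icam1 was also in the gliosis table, which set no such condition. The largest pattern, with 169 genes (31.8%), was lower than Control at 3 h and higher at 24 h. Across all listed genes the median fold was 1.71 at 3 h, 2.48 at 24 h and 2.64 for IM24h over IM3h.

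**Figure D2:**
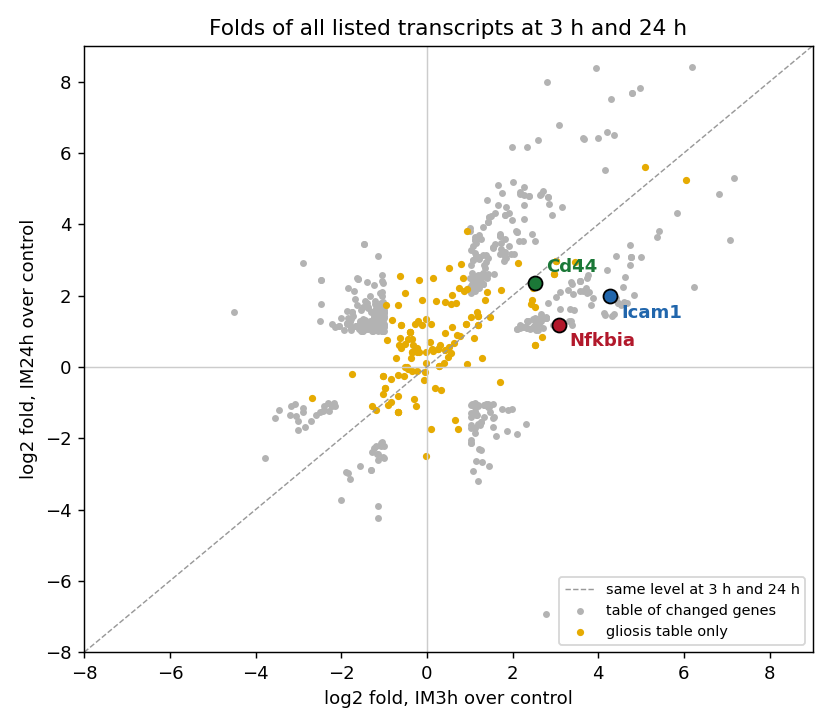
Log2 fold over Control at 3 h (horizontal) and at 24 h (vertical) for all 634 listed transcripts, with gray points for the table of changed genes, yellow points for transcripts in the gliosis table alone, and the main transcripts of Nfkbia, Icam1 and Cd44 marked. Cd44 lies next to the dashed line of equal IM3h and IM24h level (2.53 and 2.35), and Icam1 (4.28 and 1.98) and Nfkbia (3.08 and 1.18) lie below it; the empty bands follow from the 2-fold selection of the gray points.

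The time course can be put as the share of the 3 h difference from Control that was still present at 24 h. That share was 17.0% for Nfkbia, where a difference of 939 normalized counts at 3 h stood beside 160 at 24 h. For Icam1 it was 15.9%, from differences of 47.6 and 7.58. For Cd44 it was 86.0%, from differences of 183 and 157. Despite levels that differed 48.8-fold in Control, Nfkbia and Icam1 thus kept nearly equal shares. Over the 326 listed transcripts that were more than 1.5-fold above Control at 3 h, the median share was 82.7% (quartiles 17.6% and 419%). The table of changed genes required a 2-fold difference between 3 h and 24 h, so its transcripts could not have shares near 100%. The median was 39.6% in that table (278 transcripts) and 86.0% in the gliosis table (69), so the pooled median depends on the selection. Of the 326, 85 transcripts (26.1%) kept less than 20%, as Nfkbia and Icam1 did. Another 155 (47.5%) had more than 100%, being higher still at 24 h. Only 76 of the 326 kept less than Icam1, and 80 kept less than Nfkbia. In the gliosis table the median was the value of Cd44 itself, with 34 of 69 such transcripts below it, among them the other Cd44 transcripts. On the log2 scale the shares of Nfkbia and Icam1 were 38.3% and 46.2%, so their size depends on the scale, whereas both remained below the 93.0% of Cd44.

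Relative to each other, the levels of the 3 genes kept their order of Nfkbia, Cd44 and Icam1 in all groups, but the distances shifted. Nfkbia was 48.8-fold above Icam1 in Control, 21.2-fold in IM3h and 28.1-fold in IM24h. It was 3.29-fold above Cd44 in Control, 4.82-fold in IM3h and 1.46-fold in IM24h. The ratio of Cd44 to Icam1 was 14.8 in Control, 4.40 in IM3h and 19.2 in IM24h. Whether neighbours in this order differ beyond the spread between libraries was not tested.

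The genes with the most similar course were found by the distance between pairs of log2 folds (IM3h over Control and IM24h over Control), over the 204 genes whose total reached 90 normalized counts. Nfkbia was nearest to Ier2, an immediate early gene, at a distance of 0.0945 log2 units. Ier2 had levels of 3.28, 29.0 and 7.81 in Control, IM3h and IM24h, which gives folds of 8.84 and 2.38. Next to it came Rcan1, an inhibitor of calcineurin (10.3-fold and 2.42-fold above Control at 3 h and 24 h), Gem, a small GTP-binding protein that restrains calcium channels (10.5-fold and 2.28-fold), Pqlc1 (6.84-fold and 2.59-fold) and Cdr2l (6.49-fold and 2.13-fold). None of these 5 genes was on the NF-kB or adhesion lists used below.

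Icam1 was nearest to Errfi1, a feedback inhibitor of the EGF receptor, at 0.141 log2 units. Errfi1 had levels of 3.76, 80.1 and 14.3, with folds of 21.3 and 3.80. The others were Csrnp1 (21.9-fold and 3.47-fold), the inositol phosphate kinase gene Itpkc (23.0-fold and 3.32-fold), the stress-induced transcription factor gene Atf3 (24.3-fold and 3.54-fold) and Tnfrsf12a, the receptor for the cytokine TWEAK (23.8-fold and 4.77-fold). Cd44 had fewer close matches, since after Vgf, a neuropeptide precursor, at 0.165 log2 units the next gene lay at 0.610, in tables whose larger part admitted no flat course. Vgf had levels of 4.46, 24.7 and 20.5, or folds of 5.53 and 4.60. Nes, the intermediate filament protein nestin of neural progenitors and reactive glia, was 5.38-fold and 3.37-fold above Control, Ptgs2, the inducible cyclooxygenase, 5.77-fold and 3.20-fold, Fkbp5, a co-chaperone of the glucocorticoid receptor, 4.39-fold and 7.47-fold, and Birc3, a ubiquitin ligase of TNF receptor signalling, 9.86-fold and 4.46-fold. Ptgs2 and Birc3 were on the list of other inducible NF-kB targets used below, and Vgf, Nes and Fkbp5 were on none of those lists. None of the 5 genes nearest to Icam1 was on them either. Nfkbia, Icam1 and Cd44 themselves lay further apart, at 1.29 for Nfkbia and Cd44, 1.44 for Nfkbia and Icam1 and 1.79 for Icam1 and Cd44.

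**Figure D3:**
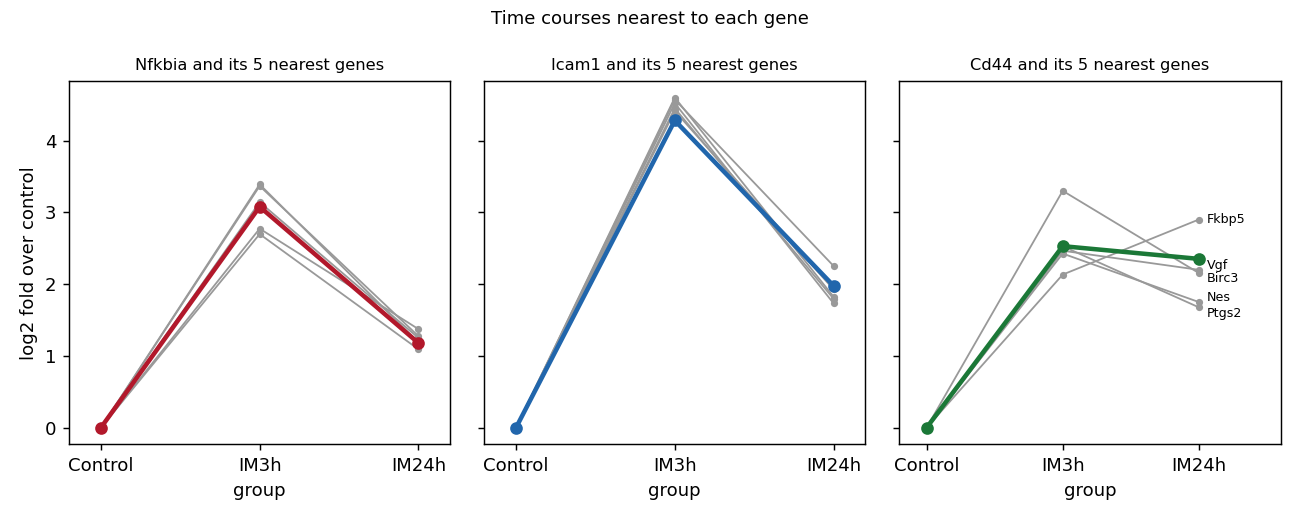
Log2 fold over Control in IM3h and IM24h for Nfkbia, Icam1 and Cd44 (thick colored lines) and the 5 genes nearest to each (gray lines), from the authors' group means. The gray lines of Nfkbia and Icam1 follow them closely at both times, whereas those of Cd44 spread at 24 h, from 1.68 for Ptgs2 to 2.90 for Fkbp5.

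Genes with related roles were read from 6 lists of 150 genes, with 33 present in the tables and each taken by its transcript with the largest total. The rest were not analysed here. A gene is counted as higher or lower past 1.5-fold, without a test, and the shares to read the counts against are those of the 531 genes above. Among the inhibitors and brakes of NF-kB, 5 of 21 were listed, of which 4 were higher and 1 lower at 3 h and all 5 were higher at 24 h (median folds 5.15 and 2.44). Zfp36, which destabilizes cytokine mRNA, had levels of 12.1, 77.0 and 33.9, and Tnip1, a partner of the ubiquitin-editing enzyme A20, had levels of 9.61, 49.5 and 23.5. Both were highest at 3 h and lower at 24 h, as Nfkbia was, with folds of 6.34 and 5.15 at 3 h. Nfkbie, which encodes another inhibitor protein of the IkB family, differed from Nfkbia in that its level was highest at 24 h (0.829, 1.68 and 3.99). Nkiras1, a small GTPase that binds IkB proteins, was below Control at 3 h (2.16, 0.743 and 5.08). The totals of Nfkbie (19.5) and Nkiras1 (24.0) were near the lowest of the listed transcripts, so their courses rest on few counts. Nfkbia accounted for 1065 of the 1194 normalized counts of the 5 listed genes in IM3h.

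Of the subunits, kinases and receptors upstream of NF-kB only 2 of 33 were listed. Tlr2, a Toll-like receptor for bacterial lipoproteins, had levels of 1.65, 13.3 and 6.42, and its 8.06-fold difference at 3 h was close to that of Nfkbia. The listed noncoding transcript of Ripk2, a kinase downstream of bacterial sensors, had levels of 2.21, 4.54 and 0.536, with a low total of 21.8. Among other inducible targets of NF-kB 15 of 31 were listed. At 3 h 14 were higher and 1 lower than Control, at 24 h 13 were higher and 2 lower, and from 3 h to 24 h 10 were lower, 4 higher and 1 neither (median folds 15.3, 11.9 and 0.358). Gadd45b, a stress-induced growth arrest gene, resembled Icam1 in its 3 h fold (20.5, from levels of 4.71, 96.7 and 13.1), as did the chemokine gene Cxcl10 (18.3, from 0.817, 15.0 and 5.36). The largest 3 h folds belonged to the chemokine genes Ccl2 (143, from 1.29, 184 and 50.8) and Cxcl1 (135, from 0.230, 31.0 and 2.74). Lcn2 and Saa3, both acute-phase genes, took the opposite course to Nfkbia after 3 h and reached 192 and 332 at 24 h from 8.79 and 9.15. Complement C3 was below Control at both times (175, 27.3 and 95.4).

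For the ligands that endothelium and tissue present to leukocytes 3 of 23 were listed, and the endothelial selectins, Vcam1 and Pecam1 were not among them. Besides Icam1 these were Pvr, the poliovirus receptor that binds lymphocyte receptors, at 7.12, 73.8 and 36.8, and Jam2, a junctional adhesion molecule, at 33.0, 20.6 and 28.0. Pvr thus shared the order of Icam1 with a lower fold at 3 h (10.4), and Jam2 was 1.60-fold below Control at 3 h. Of the leukocyte adhesion receptors 5 of 19 were listed and all 5 were higher at both times (median folds 4.21 and 14.0). The other 4 were each more than 1.5-fold higher at 24 h than at 3 h and Cd44 was not, but those 4 came from the table of changed genes, which admitted no flat course, so nothing particular to Cd44 is read from this. Itgam, the alpha chain of the integrin Mac-1 that binds ICAM-1, had levels of 1.87, 6.59 and 36.0, and Itgax, the alpha chain of a related integrin, had levels of 0.551, 2.32 and 7.70. Jaml, a junctional adhesion molecule of leukocytes, had levels of 0.877, 4.22 and 29.1, and Cytip, a regulator of integrin adhesion, had levels of 0.634, 2.07 and 8.32. The level of Cd44 in IM3h exceeded the sum of those 4 in IM24h.

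The partners of CD44 that were listed, 3 of 23, also had their highest level at 24 h. All 3 were more than 1.5-fold higher at 24 h than at 3 h, against 63.7% of the 531 genes. Mmp9 stood in the table of changed genes, which admitted no flat course, so nothing particular to these partners is read from the count. Srgn, the proteoglycan serglycin of leukocyte granules that binds CD44, had levels of 2.71, 13.0 and 47.6. Vcan, a hyaluronan-binding proteoglycan of the matrix, had levels of 3.63, 5.16 and 24.9, and Mmp9, a protease that docks on CD44, had levels of 3.03, 1.42 and 12.7. The enzymes that make hyaluronan, Has1, Has2 and Has3, were not among the listed genes.

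**Figure D4:**
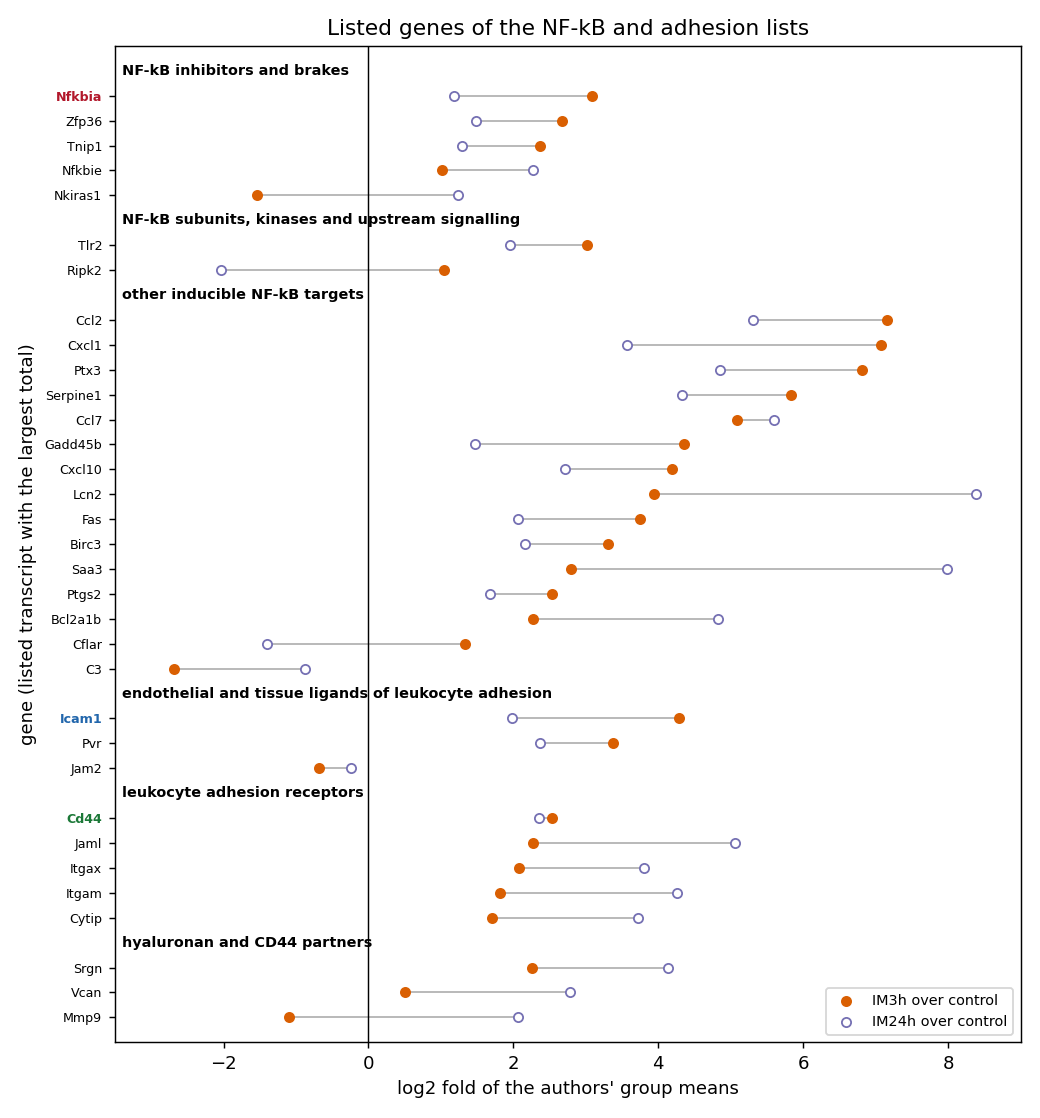
Log2 fold over Control at 3 h (filled points) and at 24 h (open points) for the 33 listed genes of the 6 NF-kB and adhesion lists, each by its listed transcript with the largest total. The open point lies left of the filled point for Nfkbia, Icam1 and most NF-kB targets, almost on it for Cd44, and right of it for the other leukocyte adhesion receptors and the CD44 partners. The other leukocyte adhesion receptors came from the table of changed genes, which admitted no flat course.

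The ME is a mixed tissue, and in bulk RNA more cells of a type and more RNA per cell cannot be told apart. Smooth muscle was represented by 2 of 12 markers, of which Myl9, a light chain of smooth muscle myosin, had the highest total of all listed transcripts (2414, 1963 and 1291 in Control, IM3h and IM24h). The other, the actin cross-linker gene Flnc, had the opposite order (42.2, 81.2 and 192.5). The 10 listed of 20 monocyte and macrophage markers had a summed level of 43.2 in Control, 80.9 in IM3h and 400.3 in IM24h. At 3 h 8 of them were higher than Control and 2 lower, against 51.0% and 41.8% of the 531 genes. Csf1r, a large part of the Control sum, was lower at 3 h (20.6, 7.52 and 74.6), as was Clec10a (0.917, 0.331 and 9.92). From 3 h to 24 h 9 were more than 1.5-fold higher, against 63.7% of the 531 genes. Cd14 was highest at 3 h (1.99, 10.9 and 7.38). Apart from Cd14 and Cd68, these markers came from the table of changed genes, which admitted no flat course. The 3 listed of 14 neutrophil markers summed to 3.22, 8.48 and 46.8. Mmp9 made up most of the Control sum and was lower at 3 h (3.03, 1.42 and 12.7). S100a9 (0.0658, 4.77 and 22.2) and Il1r2 (0.124, 2.29 and 11.9) were higher at 3 h, from very low Control levels. Il2rg, the 1 listed of 10 lymphocyte markers, stood at 0.685, 1.52 and 7.58. The levels of these leukocyte markers, as sums or for Il2rg alone, were highest at 24 h. Those of Nfkbia and Icam1 were highest at 3 h, while Cd44 was high at both times. Endothelial markers (3 of 14 listed, with Pecam1 and Cdh5 not listed) summed to 10.2, 9.67 and 40.9. Of these, Rasip1 was 2.71-fold above Control at 3 h (2.33, 6.30 and 19.4), and Egfl7 (3.56, 1.74 and 12.5) and Ramp2 (4.35, 1.62 and 9.02) were below it. Markers of enteric glia (3 of 9) summed to 30.6, 23.0 and 85.6, with Gfap, the filament protein of reactive glia, at 2.79, 11.3 and 25.2. Epithelial markers (5 of 12) were all higher than Control at 3 h and all lower at 24 h, against 51.0% and 19.0% of the 531 genes. Their sums were 223.9, 485.1 and 63.4, which is the same order of IM3h over Control as for the 3 genes. No mesothelial marker of 6 was listed, and no listed marker was at 0 in any group. The part of these cell types in the levels of Nfkbia, Icam1 and Cd44 was not tested.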

How the data were processed

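RNA of the muscularis externa was sequenced from 9 libraries made with the QuantSeq 3′ kit and, per the study's methods, read single-end on the same lane. Partek is named in the submitters' processing notes, with no version. The aligner, genome build, normalization and library depth are not given in the sources used here. The authors deposited, for each transcript and group, a least-squares mean of normalized counts (an expression signal) and the total over all libraries, which was equal, up to rounding, to 3 times the summed group means. Groups followed the labels, and the mean headed naive was taken as that of the control libraries. The deposited p-values, false discovery rates, ratios and fold changes, and the gene ontology table, hold the authors' own comparisons and were not used.

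Folds and shares were computed from the group means with no pseudocount (Python 3.11.15, pandas 2.3.3, numpy 2.4.6; figures with matplotlib 3.10.9), and the scripts were tested on simulated data. A gene was counted past a fold of 1.5 with no adjusted p. Named genes were the members, the 5 genes nearest to each of them in log2 folds among genes whose total reached 90, and the listed genes of the pathway and marker lists. Alternatives were pseudocounts of 0.1 and 1, a fold of 2, the minimum total of 90, counting by gene, the sum of the Cd44 transcripts and the log2 scale. The members and the lists were chosen with earlier results of these data known. Upstream sequences came from the RefSeq table of GRCm38.p6, and exons of the transcripts from a GENCODE annotation of the same assembly.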

Additional observations from a re-analysis of the deposited data

How the results depend on the processing

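The folds of the 3 main transcripts stayed within 1.5 times of the values given, and kept their direction, under all 21 alternatives tried (pseudocounts of 0.1 and 1, and the sum of the Cd44 transcripts). On the log2 scale the share of the 3 h difference left at 24 h was 38.3% for Nfkbia and 46.2% for Icam1. With a total of at least 90, the table of changed genes held 121 higher and 34 lower transcripts at 3 h (in place of 278 and 224), 131 higher and 24 lower at 24 h (405 and 97), and 80 higher and 75 lower at 24 h relative to 3 h (335 and 167). With the same filter the gliosis table held 14 lower transcripts at 3 h (30 without it), 8 lower at 24 h (21) and 21 lower at 24 h relative to 3 h (32). A fold above 2 left 9 lower transcripts at 3 h and 12 at 24 h in the gliosis table, and counting by gene left 10 at 24 h. With a pseudocount of 1 the folds of the Cd44 transcript NM_001177786 were 2.69 and 2.45, and 3, 2 and 3 of the 5 nearest genes were kept for Nfkbia, Icam1 and Cd44. With the minimum total, the rank by 3 h fold in the table of changed genes moved from the top 13.9% to the top 28.4% for Nfkbia and from 6.37% to 14.2% for Icam1. No value reversed its direction. No paired analysis was possible because the files analysed hold group means, and for the same reason no replicate could be left out.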
